A study of Danio rerio with 32 samples.

Results

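A group of 4 genes of early mesoderm and the axial midline were followed across 32 whole-embryo RNA libraries of the zebrafish (Danio rerio). They are 4 of the 15710 genes in the deposited expression table and were chosen by their Ensembl identifiers: ENSDARG00000039806, listed as TBXT, ENSDARG00000068567, listed as SHH, ENSDARG00000002172, listed as aplnra, and ENSDARG00000058179, listed as ACKR3. Capital symbols are the ones that the names table gives for the zebrafish identifiers. The embryos were exposed from 3 to 7 hours post-fertilization to retinoic acid, valproic acid or folic acid, or were left as controls, with 8 libraries in each of the 4 groups. All groups shared Dutch standard water with 0.01% DMSO and a 4 h exposure. Folic acid is the design's negative control compound, and doses are not given in the labels used here. The titles carry running numbers, and each of the 4 number ranges 1 to 12, 13 to 24, 25 to 36 and 37 to 48 holds 2 libraries of every group. The labels do not say what separates these ranges, nor whether replicate libraries go back to separate cultures, so the p-values measure the spread between libraries, which may in part be technical.

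Brachyury, whose zebrafish genes measured here are the paralogs TBXT and tbxta, is the founding T-box transcription factor. It is switched on around the margin of the gastrula, where Nodal and FGF signals induce mesoderm, and it is then kept in the notochord, the rod of axial mesoderm that underlies the neural tube. Sonic hedgehog (SHH) is the secreted ligand made in the organizer and notochord that patterns the floor plate and somites. It acts by relieving the block that Patched receptors put on Smoothened. Aplnra is one of the paired zebrafish apelin receptors, G protein-coupled receptors for apelin and for the small peptide Toddler (Elabela, gene apela), which guide mesendoderm cells and heart precursors during gastrulation. ACKR3, also called CXCR7, is an atypical chemokine receptor that takes up and degrades the chemokine CXCL12 and so shapes the gradient read by the signalling receptor CXCR4.

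Values are normalized expression on a log2 scale, so a difference of 1 is a factor of 2, and they are not divided by gene length, so levels are compared between groups and not between genes. A gene was called changed at an adjusted p under 0.05, from limma with Benjamini-Hochberg adjustment over all 15710 genes. The treatment check was positive: CYP26A1, the enzyme that degrades retinoic acid and a direct target of it, averaged 14.43 ± 0.05 in retinoic acid embryos and 12.91 ± 0.11 in controls (SD, n = 8 each). All 10 genes of a gastrula-stage marker list had a mean above 3 in every group, and the list's mean level lay between 11.43 and 11.56 in the 4 groups. The list includes tbxta, noto, GSC, chrd and tbx16, which are also reported below, so it is not independent of those results. In this list 1 gene rose and 1, chrd, fell with retinoic acid, where 0.732% of all genes were called. With valproic acid 2 fell, where 15.4% of all genes fell. Of 8 enveloping layer and 5 yolk syncytial layer markers, 1 and 2 fell with valproic acid, and none of these or of the 5 germ cell and 7 maternal markers was called otherwise against control. In whole embryos, fewer cells of a type and less RNA per cell cannot be told apart.

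**Figure D1:**
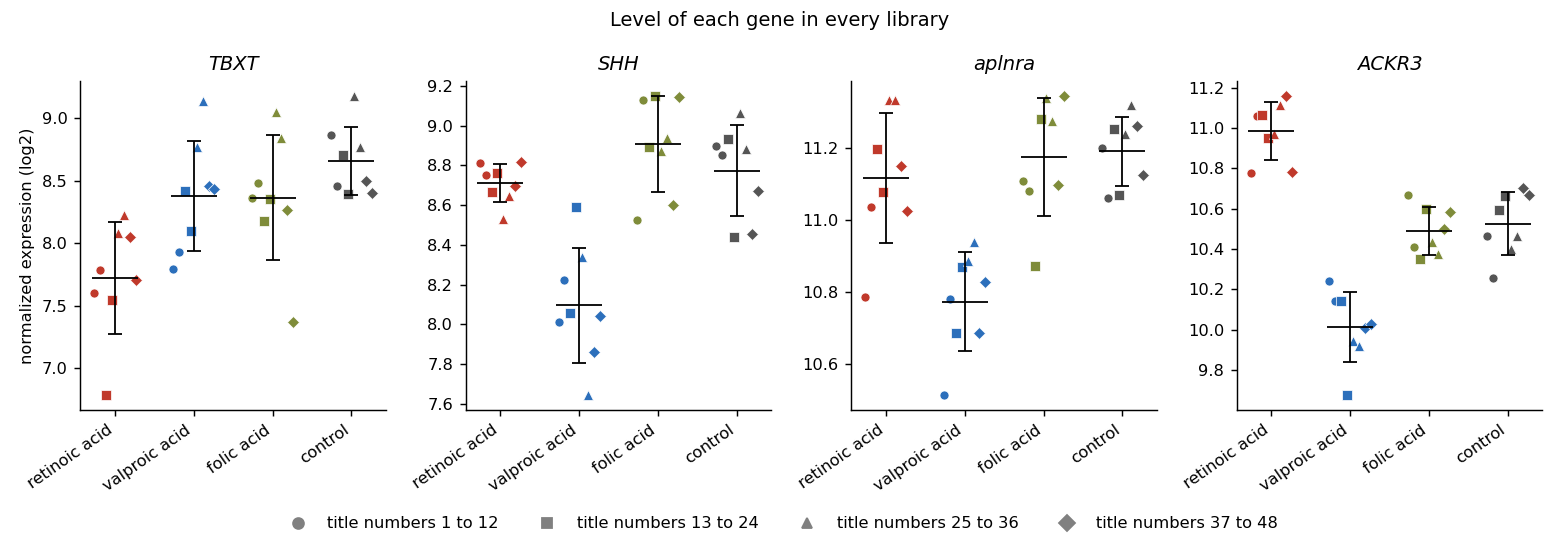
Normalized log2 expression of TBXT, SHH, aplnra and ACKR3 in each of the 32 libraries, with the mean and SD of the 8 libraries of each group in black; the marker shape gives the range of title numbers. The 8 retinoic acid libraries of TBXT all lie below the 8 controls, and ACKR3 lies above all controls with retinoic acid and below all of them with valproic acid.

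Retinoic acid changed 2 of the 4 genes, in opposite directions: TBXT fell 1.91-fold below its control level and ACKR3 rose, while SHH and aplnra did not pass the test. For scale, 0.732% of all genes were called in this comparison, 93 higher and 22 lower. As the 4 genes were chosen with earlier results of these data known, their count is not a test against that share. The gene lists were chosen in the same way, so their counts are not tests against the shares over all genes either.

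TBXT ranged from 6.79 to 8.22 with a median of 7.75 in retinoic acid embryos, and from 8.40 to 9.18 with a median of 8.60 in controls. All 8 retinoic acid libraries lay below the lowest control, and retinoic acid replicate 3 was the lowest of the 32. The log2 fold change was -0.94 with a standard error of 0.20 and a 95% interval of -1.34 to -0.53 (limma, adjusted p = 0.0096). Within the 4 ranges of title numbers the difference was -0.96, -1.38, -0.82 and -0.57, in the order of the numbers, so the sign was the same in each. When the 2 libraries of a group and range were averaged first, leaving 4 values a group, the same difference did not pass (limma, adjusted p = 0.27).

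The other brachyury gene, tbxta (ENSDARG00000101576, known as no tail), was not called. It averaged 12.65 ± 0.18 in retinoic acid embryos and 12.78 ± 0.22 in controls (SD, n = 8 each), with a log2 fold change of -0.13 (limma, adjusted p = 0.97). The within-library difference TBXT minus tbxta was 0.81 lower in retinoic acid embryos than in controls on the log2 scale, in an exact two-sided permutation test over 8 against 8 libraries (p = 0.0001554, adjusted 0.00070 over 9 tests). That p is the smallest such a test can give. Over the 4 against 4 averages of library pairs the unadjusted p was 0.0286, the smallest possible there (exact permutation test, adjusted p = 0.0857).

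Among the other axial genes, chrd, the organizer's secreted BMP antagonist, fell by 0.37 on the log2 scale under retinoic acid (limma, adjusted p = 0.039), averaging 13.47 ± 0.23 in retinoic acid embryos and 13.84 ± 0.13 in controls (SD, n = 8 each). Its call was lost when any single one of retinoic acid replicates 2, 3, 4 and 5 or control replicates 1, 2, 4, 5 and 7 was left out, with adjusted p values up to 0.12 (limma). The organizer homeobox gene GSC had a log2 fold change of -0.31, the notochord homeobox gene noto -0.13, and tbx16, a T-box gene of paraxial mesoderm, -0.14, none of them called. Their intervals reached from -0.60 to -0.01 for GSC, from -0.39 to 0.14 for noto and from -0.35 to 0.08 for tbx16.

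In the list of 26 other brachyury and T-box mesoderm genes, 1 was called with retinoic acid and the median log2 fold change was 0.03, beside -0.01 over all genes. The 1 gene was FGF8, a secreted growth factor of the margin, which rose by 0.48 (limma, adjusted p = 0.00078). In the list of 24 organizer, notochord and axial midline genes 3 fell and none rose, with a median of -0.20. These were chrd, the head and anterior mesendoderm factor otx2a, at -0.39 (limma, adjusted p = 0.00043), and the organizer BMP ligand admp, at -0.40 (limma, adjusted p = 0.038). Over averaged pairs of libraries none of the 3 passed (limma, adjusted p = 0.33, 0.054 and 0.14). The admp call was also lost without any one of retinoic acid replicates 1, 2, 4, 5, 7 and 8 or control replicates 1, 2, 3, 5, 6 and 8. The fall of otx2a was not particular to retinoic acid, as this gene also fell with valproic acid (limma, adjusted p = 3.9e-05).

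ACKR3 ranged from 10.78 to 11.16 with a median of 11.02 in retinoic acid embryos, and from 10.26 to 10.70 with a median of 10.53 in controls. Every retinoic acid library was above every control, folic acid and valproic acid library. The log2 fold change was 0.46 (SE 0.08, 95% interval 0.30 to 0.62), a 1.37-fold rise (limma, adjusted p = 0.00058). The difference was 0.56, 0.38, 0.61 and 0.29 in the 4 ranges of title numbers, in number order. Without libraries 25 to 36 it was 0.41, with an adjusted p of 0.050002 that no longer passed (limma). Over averaged pairs of libraries the adjusted p was 0.031 (limma).

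None of the other chemokine genes was called. CXCL12 (ENSDARG00000037116), the ligand that ACKR3 scavenges, had a log2 fold change of 0.08 with retinoic acid, and its second gene cxcl12b 0.06. The CXCR4 genes, which encode the signalling receptor, stood at -0.66 for ENSDARG00000041959 and 0.23 for ENSDARG00000057633, and these 4 genes had adjusted p values of 0.95 to 0.97 (limma). The interval of the first CXCR4 gene, -1.52 to 0.20, was the widest of them, so a change of the size of ACKR3's cannot be told from none there. In the list of 20 other apelin and CXCL12 receptor pathway genes none was called and the median was -0.05.

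For SHH the retinoic acid libraries spanned 8.53 to 8.81 with a median of 8.72, and controls spanned 8.44 to 9.06 with a median of 8.87. The retinoic acid libraries all lay inside the control range, and the log2 fold change was -0.06 with an interval of -0.30 to 0.17 (limma, adjusted p = 0.97). Aplnra spanned 10.79 to 11.33 with a median of 11.12 in retinoic acid embryos and 11.06 to 11.32 with a median of 11.22 in controls. Its groups overlapped broadly, and its log2 fold change was -0.07 with an interval of -0.23 to 0.08 (limma, adjusted p = 0.97). In the list of 23 other Hedgehog pathway genes none was called with retinoic acid, with a median of -0.02.

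Valproic acid, an anticonvulsant that inhibits histone deacetylases, changed the other pair together with ACKR3: SHH, aplnra and ACKR3 all fell, and TBXT did not pass. This 3 of 4 stands against a background of 31.3% of all genes called, 2505 higher and 2414 lower, so calls as such are common here.

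SHH ranged from 7.64 to 8.59 with a median of 8.05 in valproic acid embryos, and from 8.44 to 9.06 with a median of 8.87 in controls. Of the 8 valproic acid libraries 7 lay below every control, and replicate 4 lay inside the control range. The log2 fold change was -0.68 (SE 0.12, 95% interval -0.91 to -0.44), 1.60-fold lower (limma, adjusted p = 3.6e-05). Within the ranges of title numbers it was -0.75, -0.36, -0.98 and -0.61 in number order.

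The second gene listed as SHH (ENSDARG00000038867) also fell, averaging 7.04 ± 0.78 in valproic acid embryos and 7.88 ± 0.62 in controls (SD, n = 8 each). Its log2 fold change was -0.84 with an interval of -1.42 to -0.26 (limma, adjusted p = 0.024). That call was lost when valproic acid replicates 5, 6 or 7 or control replicates 3 or 4 were left out, with adjusted p up to 0.062 (limma), and over averaged pairs (limma, adjusted p = 0.11). The difference between both SHH genes was not detectably altered by valproic acid, at 0.16 on the log2 scale (exact permutation test, adjusted p = 0.74).

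Downstream of the ligand, the Patched receptor gene PTCH1 had a log2 fold change of 0.26 with an interval of -0.17 to 0.70, and the transcription factor GLI1 -0.11 with -0.29 to 0.06, neither called. Of the 23 other Hedgehog pathway genes, 10 fell and 2 rose with valproic acid, where 15.4% of all genes fell and 15.9% rose. Their median was -0.36 beside -0.01 over all genes. The ones that fell included SMO, the signal transducer, at -0.48 (limma, adjusted p = 6.3e-08), and BOC, a co-receptor, at -0.39 (limma, adjusted p = 5.1e-05). OLIG2, the motor neuron progenitor factor, fell by 2.77 (limma, adjusted p = 0.00039) from a low level, at 3.62 ± 1.97 in valproic acid embryos and 6.39 ± 1.09 in controls (SD, n = 8 each).

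Aplnra ranged from 10.52 to 10.94 with a median of 10.80 in valproic acid embryos, and from 11.06 to 11.32 with a median of 11.22 in controls. All 8 valproic acid libraries lay below the lowest control. The log2 fold change was -0.42 (SE 0.08, 95% interval -0.57 to -0.26), 1.34-fold lower (limma, adjusted p = 9.1e-05), and the 4 ranges gave -0.48, -0.38, -0.37 and -0.44 in number order, the narrowest spread of the 4 genes.

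The paired receptor gene aplnrb (ENSDARG00000036670) averaged 11.41 ± 0.26 in valproic acid embryos and 11.45 ± 0.15 in controls (SD, n = 8 each), a log2 fold change of -0.04 that was not called. Aplnra minus aplnrb was 0.38 lower in valproic acid embryos than in controls (exact permutation test, adjusted p = 0.00070), and the shift was -0.07 with retinoic acid (exact permutation test, adjusted p = 0.27) and -0.06 with folic acid (exact permutation test, adjusted p = 0.34). The ligand gene apela had a log2 fold change of -0.27 with valproic acid, with an interval of -0.51 to -0.04, and was not called (limma, adjusted p = 0.072). It passed with the title-number range as a block (limma, adjusted p = 0.040) and without any one of valproic acid replicate 4, retinoic acid replicate 3 or control replicate 1 (limma, adjusted p down to 0.024). Over averaged pairs the aplnra minus aplnrb test, too, gave the smallest unadjusted p possible there, 0.0286 (exact permutation test, adjusted p = 0.0857).

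ACKR3 ranged from 9.68 to 10.24 with a median of 10.02 in valproic acid embryos, and from 10.26 to 10.70 with a median of 10.53 in controls. No valproic acid library reached the control range. The log2 fold change was -0.51 (SE 0.08, 95% interval -0.67 to -0.35), 1.43-fold lower (limma, adjusted p = 7.0e-06), and within the ranges it was -0.17, -0.72, -0.50 and -0.67 in number order. The first range gave the smallest difference.

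Around the receptors, cxcl12b fell by 0.38 with valproic acid, averaging 10.62 ± 0.24 in valproic acid embryos and 11.004 ± 0.161 in controls (SD, n = 8 each; limma, adjusted p = 0.0013). CXCL12 was at -0.13 and the CXCR4 genes at 0.39 (ENSDARG00000041959) and -0.20 (ENSDARG00000057633), none called. Of the 20 other genes of the list, 5 fell and 2 rose, with a median of -0.18. This called share was near the 31.3% called over all genes. ARRB2 (ENSDARG00000039215), a beta-arrestin that binds such receptors, rose by 0.41 (limma, adjusted p = 2.5e-05). A second gene listed as ARRB2 (ENSDARG00000011545) was not called (limma, adjusted p = 0.79). It averaged 9.99 ± 0.36 in valproic acid embryos and 9.94 ± 0.29 in controls (SD, n = 8 each). The sphingosine-1-phosphate transporter spns2 fell by 0.69 (limma, adjusted p = 0.00038) and the G protein subunit gene GNA13 (ENSDARG00000073765) fell by 0.52 (limma, adjusted p = 0.0014).

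TBXT ranged from 7.79 to 9.14 with a median of 8.43 in valproic acid embryos, against the control range given above. The groups overlapped, and the log2 fold change of -0.28 had an interval of -0.69 to 0.13 (limma, adjusted p = 0.30). Its difference was -0.80 in libraries 1 to 12, -0.29 in 13 to 24, -0.02 in 25 to 36 and -0.01 in 37 to 48. TBXT minus tbxta was 0.37 lower with valproic acid than in controls (exact permutation test, adjusted p = 0.041), and tbxta itself stood at 0.09. The same difference was 0.31 lower with folic acid, the negative control compound (exact permutation test, adjusted p = 0.11), and whether the shifts of the compounds differ was not tested. Without libraries 25 to 36 it was -0.39 with valproic acid and -0.40 with folic acid (exact permutation test, adjusted p = 0.029 and 0.026). Over averaged pairs the valproic acid shift stayed at -0.37 and its call was lost (exact permutation test, adjusted p = 0.0857). Its unadjusted p of 0.0286 was the smallest possible there, so the lost call says little about the shift.

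Called genes in the mesoderm and midline lists were all falls under valproic acid, but the called share of both lists was near the background of 31.3%, made up of 15.4% that fell and 15.9% that rose. Of the 26 other brachyury and T-box genes 9 fell and none rose (median -0.20), among them the segmentation genes ripply1, at -0.49 (limma, adjusted p = 0.00073), and mespbb, at -1.41 (limma, adjusted p = 0.0029), and the paraxial mesoderm T-box gene tbx6, 2.00-fold lower (limma, adjusted p = 0.0035). FGF8, which rose with retinoic acid, fell by 0.27 (limma, adjusted p = 0.012). Of the 24 axial midline genes 9 fell and none rose (median -0.25), including the cartilage and notochord collagen COL2A1 (ENSDARG00000011407), at -1.31 (limma, adjusted p = 0.00047), and col8a1a, another collagen gene, at -1.62 (limma, adjusted p = 0.00074). The lowest adjusted p among them was that of otx2a, which averaged 11.22 in valproic acid embryos and 11.60 in controls (limma, adjusted p = 3.9e-05). Its retinoic acid mean was 11.21, and the direct comparison of both compounds did not call it (limma, adjusted p = 0.91).

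Against the same background of 31.3% called, the lists of other germ layers and of cell movements gave the following counts under valproic acid. Of 17 ventral and lateral mesoderm genes 8 fell and none rose (median -0.66), among them the BMP pathway gene szl, at -1.08 (limma, adjusted p = 6.6e-06), and the blood and endothelial factor GATA2, which had the lowest adjusted p, at -0.60 (limma, adjusted p = 1.0e-06). Of 26 Nodal and endoderm genes 7 fell and 2 rose (median -0.19), and the endoderm factor SOX17 fell by 1.09 (limma, adjusted p = 4.6e-11). Of 33 gastrulation movement genes 7 fell and 2 rose (median -0.10), a called share below the background, with the planar polarity gene PRICKLE1 (ENSDARG00000045694) at -0.68 (limma, adjusted p = 1.0e-06). In these 3 lists retinoic acid called 0, 0 and 3 genes, where 0.732% of all genes were called. The mean of 4 measured genes of a somite-stage marker list was 6.47 in valproic acid embryos, 7.55 in retinoic acid embryos and 7.02 in controls, with 3 of the 4 fallen and 1 risen under valproic acid; the part of embryo age in the results was not tested.

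**Figure D2:**
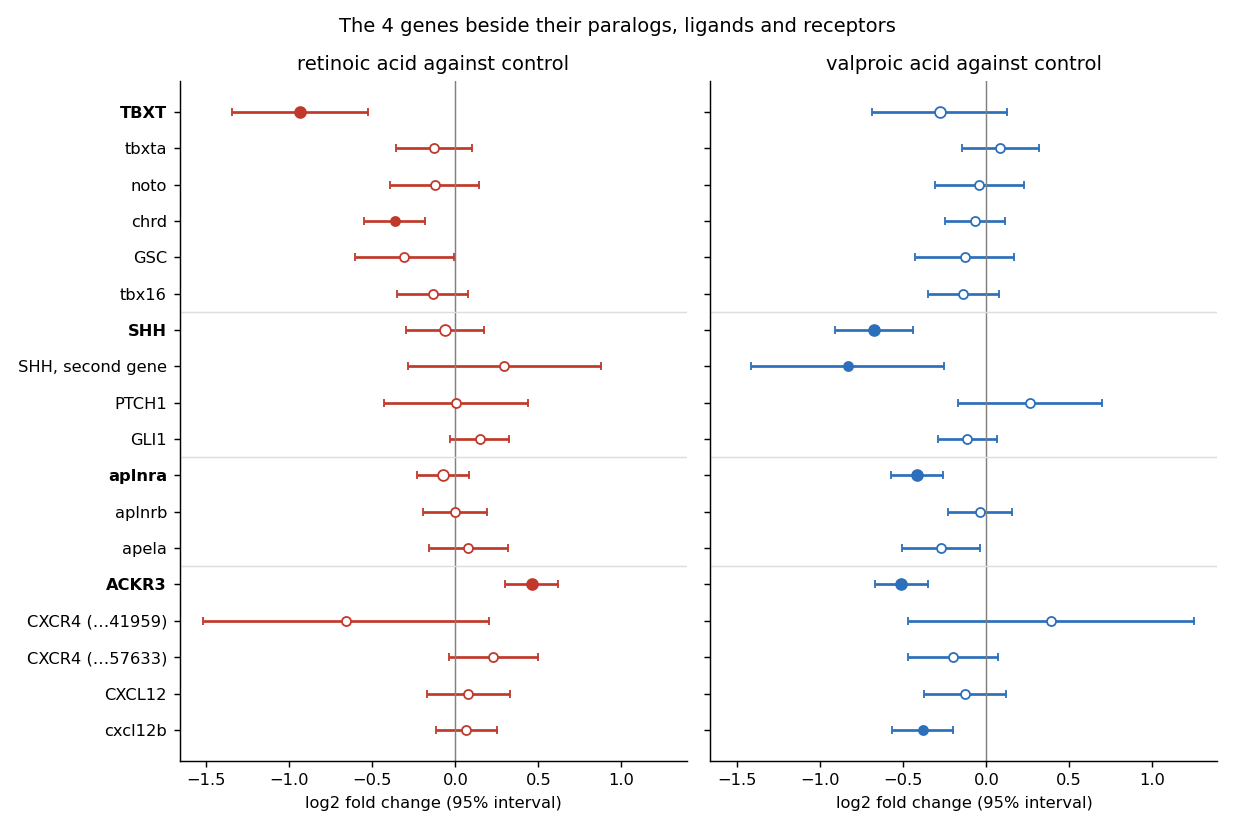
Log2 fold changes with 95% intervals of the 4 genes (bold) and of their paralogs, ligands, receptors and axial neighbours under retinoic acid (left) and valproic acid (right) against control; filled points passed the adjusted p of 0.05. TBXT stands apart from tbxta on the left and aplnra from aplnrb on the right.

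Set directly against each other, retinoic acid and valproic acid differed in all 4 genes, where 30% of all genes were called. TBXT was lower with retinoic acid, at -0.66 (limma, adjusted p = 0.012), and SHH at 0.61 (limma, adjusted p = 0.00012), aplnra at 0.34 (limma, adjusted p = 0.00081) and ACKR3 at 0.97 (limma, adjusted p = 2.3e-11) were higher. The ACKR3 difference is 1.96-fold, and no library of either group reached the other. For TBXT 5 of the 8 retinoic acid libraries lay below every valproic acid library, and over averaged pairs its difference did not pass (limma, adjusted p = 0.074). Both comparisons with control used the same 8 control libraries.

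Folic acid called none of the 4 genes, as it called 0% of all genes (0 of 15710 with limma, and 507 at an unadjusted p under 0.05). SHH ranged from 8.52 to 9.15 with a median of 8.91 in folic acid embryos, and ACKR3 from 10.35 to 10.67 with a median of 10.47. Aplnra ranged from 10.87 to 11.35 with a median of 11.19, and each of these ranges overlapped the control range. Their log2 fold changes were 0.13, -0.04 and -0.02. TBXT ranged from 7.37 to 9.05 with a median of 8.36, and its log2 fold change of -0.30 had an interval of -0.70 to 0.11. The single fit gives a gene the same interval width in every comparison of treatment groups.

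With folic acid in place of the untreated libraries, the teratogens gave the same pattern for 3 genes. Valproic acid against folic acid called SHH at -0.81, aplnra at -0.40 and ACKR3 at -0.48 (limma, adjusted p = 2.7e-06, 0.00015 and 2.2e-05, with 29.3% of all genes called), and left TBXT at 0.01. Retinoic acid against folic acid called ACKR3 at 0.50 (limma, adjusted p = 0.00015, with 0.866% of all genes called). TBXT was at -0.64 there and did not pass (limma, adjusted p = 0.21). The groups overlapped, and 1 of 8 retinoic acid libraries lay below every folic acid library. Folic acid replicate 8, at 7.37, set the low end of that group, and without it the difference was -0.78 and passed (limma, adjusted p = 0.029).

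The order of the group means differed between genes. TBXT averaged 7.72 ± 0.45 with retinoic acid, 8.38 ± 0.44 with valproic acid, 8.36 ± 0.50 with folic acid and 8.66 ± 0.28 in controls (SD, n = 8 each); the retinoic acid mean was the lowest, and limma did not tell the other 3 groups apart. SHH averaged 8.71 ± 0.10 with retinoic acid, 8.10 ± 0.29 with valproic acid, 8.91 ± 0.24 with folic acid and 8.77 ± 0.23 in controls, so that valproic acid was lowest and folic acid highest, with no called difference among the upper 3. Aplnra averaged 11.12 ± 0.18 with retinoic acid, 10.77 ± 0.14 with valproic acid, 11.18 ± 0.16 with folic acid and 11.19 ± 0.10 in controls, again with valproic acid lowest and no called difference among the rest. ACKR3 averaged 10.99 ± 0.14 with retinoic acid, 10.01 ± 0.17 with valproic acid, 10.49 ± 0.12 with folic acid and 10.53 ± 0.16 in controls. Its order was retinoic acid, control, folic acid, valproic acid from high to low, and the middle pair was not told apart.

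TBXT and aplnra also differed between the title-number ranges. The p-values of these range differences measure the spread between libraries within ranges, not the spread between ranges. Against libraries 1 to 24, and with treatment in the model, libraries 25 to 36 were higher for TBXT by 0.65 (SE 0.13; limma, adjusted p = 0.00064) and for aplnra by 0.22 (SE 0.06; limma, adjusted p = 0.0050), where 22.3% of all genes were called. SHH at -0.05 and ACKR3 at -0.05 were not called. The mean over all 8 libraries of a range was 8.16, 8.06, 8.76 and 8.15 for TBXT and 10.95, 11.04, 11.21 and 11.07 for aplnra. Libraries 37 to 48 called none of the 4 genes, with 9.19% of all genes called.

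The partner genes tbx16, at 0.40 (limma, adjusted p = 2.9e-05), tbxta, at 0.34 (limma, adjusted p = 0.0010), and aplnrb, at 0.32 (limma, adjusted p = 0.00026), were likewise higher in libraries 25 to 36. The gastrula marker list, which includes tbxta and tbx16, had 5 of its 10 genes higher and 1 lower there. Over all genes, 11.1% were called higher and 11.2% lower in that comparison. Its mean was 11.65 in libraries 25 to 36 beside 11.44 to 11.50 in the other ranges. The 4 somite-stage markers had a mean of 6.51 there beside 7.11 to 7.40, with 3 of them lower. The part of embryo age in these range differences was not tested.

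**Figure D3:**
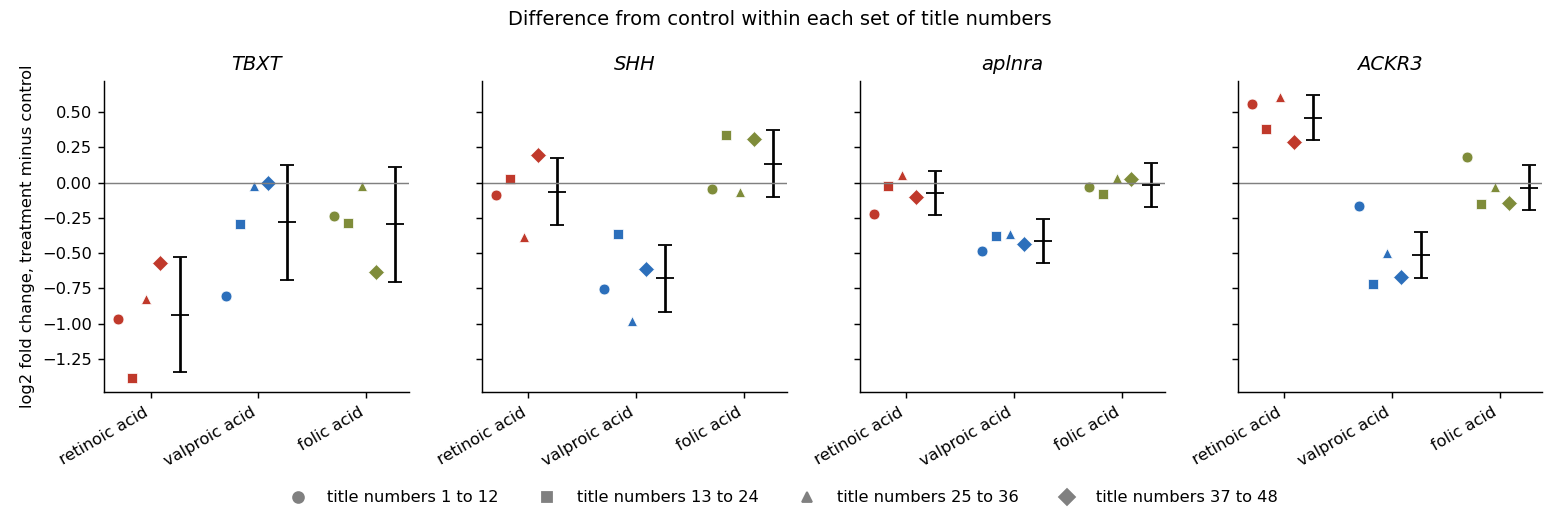
Log2 fold change against control within each range of title numbers (2 against 2 libraries for each marker), beside the fold change over all libraries with its 95% interval in black. ACKR3 keeps its sign in every range with retinoic acid and with valproic acid, and the TBXT differences with valproic acid run from -0.80 to -0.01.

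Whether a treatment difference varied between ranges was tested with all 9 interaction terms together, and none of the 4 genes was called, while 0.153% of all genes were. TBXT came nearest, with an unadjusted p of 0.049 from limma and an adjusted p of 0.52. Treatment held 85.9% of the variance of ACKR3, 68.4% of that of SHH, 60.1% of that of aplnra and 42.7% of that of TBXT, beside a median of 17.4% over all genes. The 4 genes were chosen with earlier results of these data known, so their distance from that median is not a test. The ranges held 27.9% for TBXT and 18.3% for aplnra, against 2.19% for SHH and 0.934% for ACKR3, and the median over all genes was 16.3%.

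The 4 genes did not follow one another closely. Over the 32 libraries, which share treatments and ranges, Pearson's r was 0.66 for SHH and aplnra, 0.54 for aplnra and ACKR3, 0.44 for SHH and ACKR3, and -0.46 for TBXT and ACKR3. After the group and range means were removed it was 0.20, 0.25, -0.44 and -0.13 for the same pairs. TBXT had an r of -0.08 with SHH and 0.16 with aplnra.

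Among 10242 named genes of sufficient level, those most like ACKR3 over the 32 libraries included tiparp, an ADP-ribosyltransferase (r = 0.91), DHRS3 (ENSDARG00000044803), which reduces retinal (0.91), hephl1a, a multicopper ferroxidase relative (0.90), and ugt5g1, a glucuronosyltransferase (0.89). DHRS3 had a log2 fold change of 1.06 with retinoic acid and -0.48 with valproic acid, and hephl1a 2.23 and -1.60. All 4 rose with retinoic acid and fell with valproic acid, as ACKR3 did, and the choice of the genes fixes this likeness. DHRS3 is also in the retinoic acid response list, of 15 genes. Under retinoic acid 7 of them rose and 1 fell, where 0.732% of all genes were called. Valproic acid lowered 10 of the 15 and raised none, where 31.3% of all genes were called and 15.4% fell. As this list was chosen with earlier results of these data known, its counts are not a test against these shares.

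The genes most like TBXT were SULF1, a heparan sulfate sulfatase (r = 0.86), arhgef37 (0.84), kirrel3l (0.81), the chromatin remodeller ATRX (0.80) and TCF7L1, a repressor of Wnt targets (0.78). Of these, arhgef37 was called with retinoic acid, at -0.60 (limma, adjusted p = 0.029), and lost that call without any one of retinoic acid replicates 3, 4 and 8 or control replicates 1, 2, 5 and 6. After the group and range means were removed, the gene most like TBXT was PKD2 (r = 0.86). The 5 genes most like TBXT then included none of those named above. With these means left in, the genes most like SHH were CDCA4 (0.90), AEBP2 (0.88), RBM39 (0.88), DEAF1 (0.87) and TBX1 (0.87). Those most like aplnra were ppfibp2b (0.87), the ETS factor and FGF target etv5b (0.86), mier1a (0.84), TTC22 (0.84) and MMADHC (0.84). All 10 of these fell with valproic acid, from -0.35 for AEBP2 to -1.37 for DEAF1, and none was called with retinoic acid; as SHH and aplnra did the same, the choice of the genes fixes this likeness too.

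**Figure D4:**
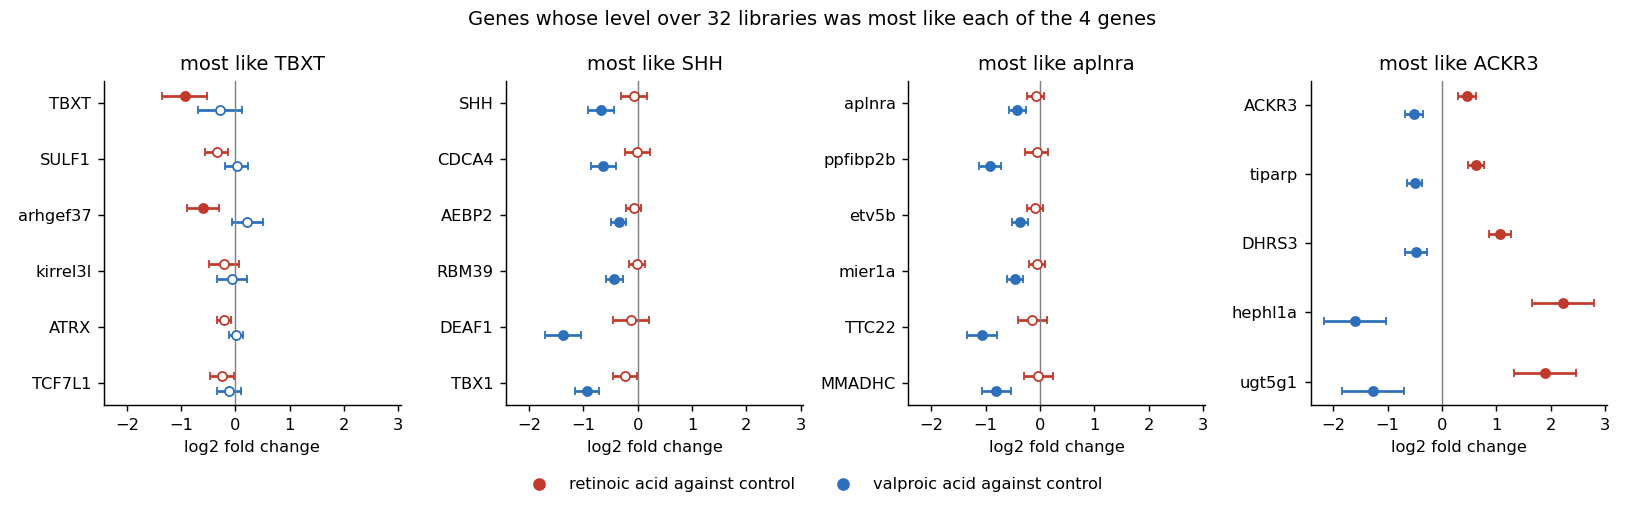
Log2 fold changes with 95% intervals under retinoic acid (red, upper point) and valproic acid (blue, lower point) against control, for each of the 4 genes and the genes most like it over the 32 libraries, 4 for ACKR3 and 5 for each of the others; filled points passed the adjusted p of 0.05. The genes most like ACKR3 move to opposite sides under both compounds, and those most like SHH and aplnra move with valproic acid.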

How the data were processed

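Whole zebrafish embryos were profiled by RNA sequencing in 32 libraries, 8 for each of retinoic acid, valproic acid, folic acid and control. The authors deposited 1 table of normalized log2 expression values for 15710 genes, ranging from 0 to 19.4; the submitters' processing notes name HTSeq 0.11.0, limma and the build GRCz11 without saying how each was used. The 1000 highest-ranked values differed between libraries by at most 0.03, so the distributions had been equalised and read depth per library is unknown from the table. Equalised distributions express each gene relative to the others in its library, so a shift shared by all genes is not visible.

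The 4 genes were matched by identifier. Symbols came from a table of gene names for 15016 identifiers. The 4 genes and the gene lists were chosen with earlier results of these data known. Of 221 list genes queried, 120 matched by name, 62 after dropping a paralog letter and 39 had no match. Marker genes were matched in the same way and are not in these counts.

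All 32 libraries entered 1 limma 3.58.1 fit (R 4.3.3, intensity trend, Benjamini-Hochberg adjustment over all genes, called under 0.05). A filter at a mean of 1 removed 0 genes. Range differences came from treatment plus range, and the interaction from 16 cell means. Paralog differences were tested by exact permutation over libraries with scipy 1.17.1. The fit was tested on simulated data. Genes named besides the 4 were fixed partners, up to 4 called genes with the smallest adjusted p from each list and comparison (not all are printed), and the 5 genes most correlated with each among the upper 75% by mean. Results on 2 genes that this rule names are not reported here. No sequences or coordinates are given.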

Additional observations from a re-analysis of the deposited data

Results flagged for a closer look

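Of 16 gene and group combinations examined for a library far from the other 7, 1 stood out. TBXT in retinoic acid replicate 3 was 6.79, the lowest of the 8 retinoic acid libraries, and the next was 7.55. That gap was 0.53 of the group's whole range, just above the critical value of 0.526 for 8 libraries, and chance alone marks about 1 in 20 such groups. Leaving out single libraries in turn, the TBXT difference between retinoic acid and control stayed between -1.01 and -0.80 and was called in all 32 fits (limma, adjusted p from 0.0031 to 0.034).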

How the results depend on the processing

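Of 1876 alternative values, 1833 stayed on their side of the threshold or, where untested, within the spread between replicates or close to the main count, and no called value changed sign. With the title-number range as a replicate block, 199 genes were called for retinoic acid against control and 221 against folic acid, and TBXT against folic acid passed at -0.64 (limma, adjusted p = 0.019); it changed no other call of the 4 genes. The labels do not say that the numbers pair libraries. With library pairs averaged, these counts were 36 and 54, and 823 genes were called for libraries 37 to 48. TBXT then no longer passed against control (-0.94) or valproic acid (-0.66). The paralog differences of -0.81, -0.37 (TBXT) and -0.38 (aplnra) lost their calls. Each had an unadjusted p of 0.0286, the smallest possible over 4 against 4 averages (exact permutation test). With no smaller p possible, adjustment over 9 tests left little room for a call. For the lost limma calls the part of the smaller number of values was not tested. Without libraries 37 to 48 the counts were 65 and 73. Library quality weights gave 2168 genes for libraries 37 to 48 and TBXT against folic acid at -0.66 (limma, adjusted p = 0.026). Without the valproic acid group, 2025 genes were called for libraries 25 to 36 and 908 for 37 to 48; in controls alone SHH in 25 to 36 was 0.19. Without libraries 25 to 36, ACKR3 with retinoic acid was 0.41 (limma, adjusted p = 0.050002), and TBXT minus tbxta with folic acid passed at -0.40 (exact permutation test, adjusted p = 0.026). An alternative chosen after seeing the data left out the folic acid pair numbered 37 to 48, whose lowest values, 1.75 and 1.67, were the highest of any library: 1 gene was then called for folic acid, and TBXT against folic acid was -0.82 (limma, adjusted p = 0.032). The exact permutation test for TBXT against folic acid gave -0.64 with an unadjusted p of 0.016. Leaving out single libraries, that difference ranged from -0.78 to -0.51.

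Single ranges, with 2 libraries a group and no test, moved most. For retinoic acid against control they gave TBXT -1.38 (13 to 24), SHH -0.38 (25 to 36) and 0.19 (37 to 48), and ACKR3 0.61 (25 to 36) and 0.29 (37 to 48). For valproic acid against control they gave TBXT -0.80 (1 to 12), SHH -0.36 (13 to 24) and -0.98 (25 to 36), and ACKR3 -0.17 (1 to 12), -0.72 (13 to 24) and -0.67 (37 to 48). ACKR3 with folic acid was 0.18 (1 to 12). TBXT in retinoic acid against folic acid was -1.10 (13 to 24) and 0.061 (37 to 48), and in valproic acid against folic acid -0.56 (1 to 12) and 0.63 (37 to 48). In retinoic acid against valproic acid TBXT was -0.16 (1 to 12) and -1.09 (13 to 24) and ACKR3 0.73 (1 to 12). The causes of these differences were not tested.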
